A study of Homo sapiens with 2 samples.

Results

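The genes described here are 50 components of the Wnt signalling pathway, chosen by name: 13 ligands, 2 genes of ligand secretion, 9 Frizzled receptors, 4 other receptors and co-receptors, 5 genes of the R-spondin branch, 9 extracellular inhibitors, 4 intracellular inhibitors and feedback targets, and 4 TCF and LEF transcription factors. Probe sets carrying a single gene symbol were found for 45 of the 50, 103 probe sets in all, among the 19775 genes that had such a probe set on the array. WNT3 and FZD8 had only probe sets annotated to several genes, and WNT3A, PORCN and TCF7 had no probe set under their symbols; these 5 were not analysed here. RNA came from KYSE-140, an established human esophageal squamous cell carcinoma line that was parted by flow sorting on CD90, the surface glycoprotein encoded by THY1. The CD90+ and the CD90- fraction of this 1 line were each hybridised to 1 Affymetrix U133 Plus 2.0 array, with no treatment named in the labels. The comparison asks how expression of the pathway differed between the fractions.

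Wnt proteins are lipid-modified secreted ligands, acylated by PORCN and carried to the cell surface by WLS. They bind Frizzled receptors together with LRP5 or LRP6, which stops the destruction complex built on AXIN and APC from degrading beta-catenin, so that beta-catenin can enter the nucleus and act with TCF and LEF factors on target genes. Several targets, among them AXIN2, RNF43, ZNRF3, NKD1, DKK1 and APCDD1, feed back to damp the signal, and other ligands act through ROR or RYK receptors or through planar polarity proteins without beta-catenin. In stratified squamous epithelium the pathway is known for its part in the basal, proliferating layer.

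Each value below is a signal, the brightness of a probe set on a linear scale. The arrays had 2 to 98% trimmed means of 499.9 and 499.9. With 1 array per fraction there was no spread between samples to test against, so no difference below carries a p-value or an interval, and each fold compares these 2 RNA samples. Signals under a common floor of 71.6, the geometric mean of the median signals of both arrays, were set to it before a ratio was taken, and a fold with 1 side under the floor is written as "at least". A gene was measured where the probe set standing for it, in nearly every case its brightest, reached the floor on at least 1 array; 33 of the 50 members were, against 12466 of 19775 genes on the array. Levels of different genes cannot be ranked, since each probe set has its own response. The nearest thing to a repeat was the scatter of log2 ratios among probe sets of the same gene, a pooled SD of 0.31 over 6188 genes, and 0.40 over the 771 genes whose brightest probe set stayed under 4 times the floor. THY1, read on the same scale, was at 293 in the CD90+ fraction against 78.9, close to the floor, or 3.72-fold higher, as sorted. Its 3 probe sets had log2 ratios of floored signals from 1.77 to 2.85. All 7 measured squamous epithelial markers were well above the floor in both fractions, with a summed signal of 86536 in CD90+ and 89389 in CD90- cells. On the probe set standing for each gene their ratios were all within 1.5-fold, 4 above 0 and 3 below. These log2 ratios ran from -0.43, of PKP1, to 0.52, of the basal keratin KRT14 (5323 and 3700). KRT5, also a basal keratin, read 19356 and 19208. Over all measured probe sets, SOX2 ran from -0.80 to -0.23, PKP1 from -0.54 to -0.43 and DSG3 from 0.43 to 0.51. KRT6A, KRT17 and TP63 had no probe set under their symbols. Of the fibroblast markers 2 of 9 were measured, COL1A1 (2125 in CD90+, 1240 in CD90-) and PDGFRA (107 and 107); the summed signal of the list was 2421 in CD90+ and 1479 in CD90- cells, and COL1A2, COL3A1, DCN, LUM, PDGFRB, FAP and POSTN were under the floor in both. Endothelial and leukocyte markers reached the floor in 1 gene each, with summed signals of 225 and 136 in CD90+ and 121 and 198 in CD90- cells. The part of other cells in the values below was not tested, and in RNA from a whole fraction fewer expressing cells and less RNA per cell cannot be told apart.

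Of the 33 measured members 2 were at least 2-fold higher in CD90+ cells, APCDD1 and TCF7L1, which is 6.06% against 2.47% of all measured genes, and 0 were at least 2-fold lower, against 1.75%. The median log2 ratio of the members was 0.00, beside 0.01 over all measured genes, with 17 ratios above 0 and 16 below. The ratio of SFRP1 is only a lower bound, so it cannot be placed on either side of 2-fold. Under a lower floor, the 25th percentile of signals, the share at least 2-fold higher was 7.89% of 38 measured members against 6.51% of all measured genes. At 1.5-fold, 8 members were higher, 24.2% against 7.37% of all measured genes, and 2 were lower, 6.06% against 6.76%. The 8 include SFRP1, which was measured only through its CD90+ reading. Members were chosen with earlier results of these data known, so these shares are description only. Dim genes vary more, so the counts are also given by signal. Among the 21 members whose brighter side was at least 4 times the floor, 4 were at least 1.5-fold higher and 1 lower, where the array as a whole gave 6.08% and 5.87%. Among the 12 dimmer members 4 were higher and 1 lower, where the array gave 10.7% and 9.05%. Of the 8 higher members 6 rest on a single probe set, since 21 of the 33 measured members had only 1 that reached the floor.

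**Figure D1:**
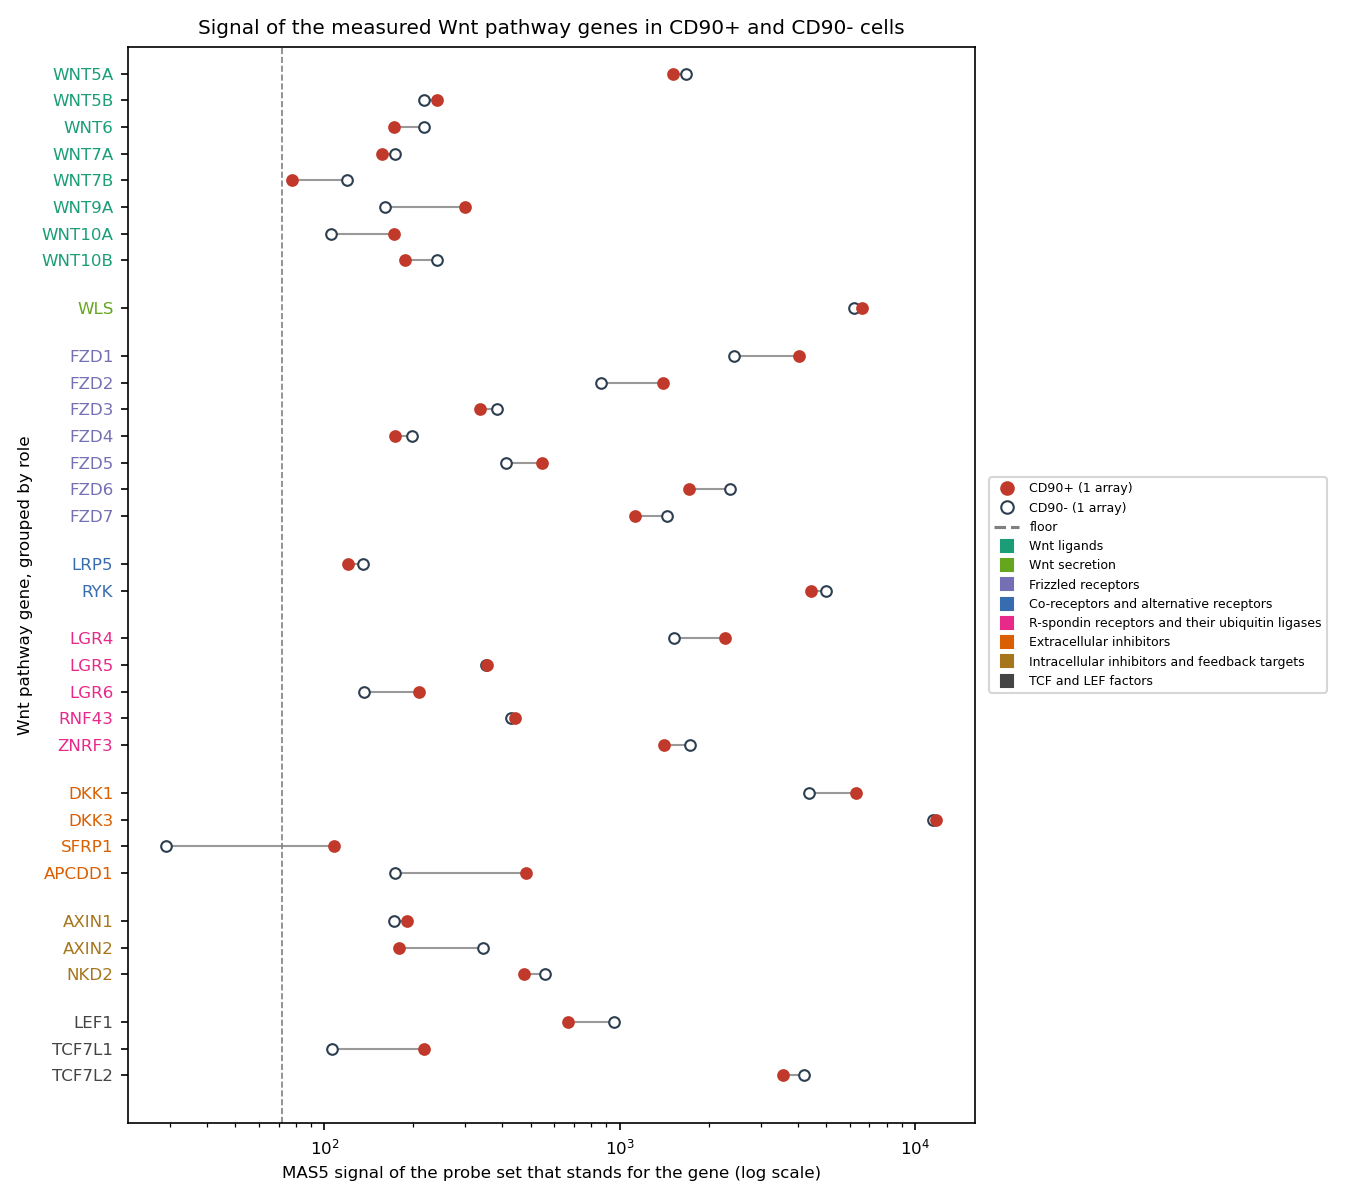
Signal in CD90+ cells (filled) and CD90- cells (open) of the probe set standing for each of the 33 measured Wnt genes, 1 array each, on a log axis in signal units, grouped by role; the dashed line is the floor of 71.6. APCDD1 (481 and 173) and TCF7L1 (218 and 106) show the widest gaps with both points above the floor, and AXIN2 (179 and 344) the widest in the other direction.

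Among members with both signals over the floor the largest ratio belonged to APCDD1, a membrane glycoprotein that binds Wnt and LRP proteins, blocks the pathway at the cell surface and is itself a target of beta-catenin. Its signal was 481 in CD90+ and 173 in CD90- cells, 2.78-fold higher in CD90+ cells, and 0.923% of all measured genes had a higher ratio. CD90+ cells were thus above CD90- cells with both readings over the floor. A second APCDD1 probe set read 44.3 and 46.1, under the floor in both, so the difference rests on 1 probe set. The 50 genes nearest to APCDD1 on its chromosome had a median log2 ratio of 0.05, against its own 1.47.

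TCF7L1, an HMG-box factor that mostly represses Wnt targets when beta-catenin is absent, was the other member past 2-fold. Its only probe set read 218 in CD90+ and 106 in CD90- cells, 2.05-fold higher in CD90+ cells and so just inside the threshold. That probe set is of a class whose probes match several transcripts. Genes around TCF7L1 went slightly the other way, with a median log2 ratio of -0.18. A higher floor, 397 (the 75th percentile), left TCF7L1 unmeasured and APCDD1 with a log2 ratio of at least 0.28.

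The promoter-proximal sequences of the members were searched for the core letters that TCF and LEF factors recognise. Those of these 2 genes are shown, and that of DKK1, whose window held 2 matches in a wider search. TCF7 and TCF7L2 also held a match in that search and are not shown. The 250 bases before the annotated start were read from RefSeq's GRCh38.p14 table, which held 45 promoters of 35 members. APCDD1 lies at chr18:10454385-10454634 and TCF7L1 at chr2:85133142-85133391, both on the plus strand, and neither window holds the letters searched. DKK1 lies at chr10:52314031-52314280 on the plus strand, and its window holds 2 forms of the core, in capitals, starting 95 and 76 bases before the start. Both forms belong only to the wider search described below.
APCDD1: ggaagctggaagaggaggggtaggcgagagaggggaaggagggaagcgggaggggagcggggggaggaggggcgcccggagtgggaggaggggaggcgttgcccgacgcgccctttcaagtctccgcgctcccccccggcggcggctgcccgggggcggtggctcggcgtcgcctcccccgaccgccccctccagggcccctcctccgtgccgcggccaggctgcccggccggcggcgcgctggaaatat
TCF7L1: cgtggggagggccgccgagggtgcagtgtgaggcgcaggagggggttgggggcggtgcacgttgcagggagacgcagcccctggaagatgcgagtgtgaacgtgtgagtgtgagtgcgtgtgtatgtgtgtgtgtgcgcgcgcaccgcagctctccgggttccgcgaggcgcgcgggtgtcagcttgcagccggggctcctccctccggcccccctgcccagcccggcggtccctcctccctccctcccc
DKK1: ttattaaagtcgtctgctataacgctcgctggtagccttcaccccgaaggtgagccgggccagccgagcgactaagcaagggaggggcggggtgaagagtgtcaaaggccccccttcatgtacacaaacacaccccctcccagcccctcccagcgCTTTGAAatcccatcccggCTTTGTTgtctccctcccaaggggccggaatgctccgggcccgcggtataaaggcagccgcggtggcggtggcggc

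The 7 letters CTTTGAT, on either strand, were found in 0 of the 45 member promoters and in 2.26% of all 35116 promoters of that length. A wider search, chosen after the first, also took the close variant CTTTGAA and 2 more variants of the core, CTTTGTA and, last, CTTTGTT. With these 4 forms 3 of the 45 (6.67%) held a match, in DKK1, TCF7 and TCF7L2, against 12.0% of all promoters. The member windows had a median GC content of 65.2%, and all windows 58.0%. These matches describe letters in a short window and no binding.

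Among the ligands 8 of 13 were measured and 0 were beyond 2-fold, with 3 ratios above 0 and 5 below. The shares of all measured genes beyond 2-fold were 2.47% higher and 1.75% lower. WNT9A had the highest ratio of the family, at 299 in CD90+ and 160 in CD90- cells, 1.86-fold higher and the member closest under the 2-fold line on that side. WNT10A, a ligand of skin appendages and stratified epithelium, read 172 and 105, 1.64-fold higher. Both were higher in CD90+ cells on the 1 probe set of each that reached the floor.

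WNT5A, the best known ligand of signalling without beta-catenin, was slightly lower in CD90+ cells on both of its probe sets. They read 1519 and 754 in CD90+ and 1682 and 931 in CD90- cells, folds of 1.11 and 1.24. Its relative WNT5B read 241 and 218. All 3 log2 ratios of these genes, -0.15, -0.31 and 0.14, were no larger in size than the pooled SD among probe sets of a gene, 0.31.

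WNT7B had its main probe set at 77.7 in CD90+ and 119 in CD90- cells, 1.54-fold lower, but a second one, of the _x_at class, whose probes may bind other transcripts, read 244 and 246. The probe sets of WNT7B thus differ in size. Those of WNT6 gave opposite directions, with 172 and 217 on 1 probe set and 94.5 and 38.2 on another, the second at least 1.32-fold higher in CD90+ cells. WNT7A (156 and 174) and WNT10B (187 and 241) were within 1.5-fold. WNT2, WNT4 and WNT11 stayed under the floor in both fractions. WLS, the carrier that takes Wnt proteins to the surface, read 6621 and 6211, and 3566 and 3683 and then 1040 and 949 on its other probe sets, with log2 ratios from -0.05 to 0.13.

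The Frizzled receptors parted by gene. FZD1 and FZD2 were higher in CD90+ cells on all of their probe sets, and FZD6, on its 1 probe set, and FZD7, on both of its own, were lower, in each case by less than 2-fold. FZD1 read 4034 against 2442 in CD90- cells, 1.65-fold higher, and its other probe sets read 304 against 152, just under 2-fold, and 248 against 176, 1.42-fold. FZD2, a close relative of FZD1, read 1404 and 867 on 1 probe set and 173 and 107 on the other, folds of 1.62 and 1.61. These were the 2 members past 1.5-fold that several probe sets support, and 5.11% and 5.49% of all measured genes had higher ratios.

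**Figure D2:**
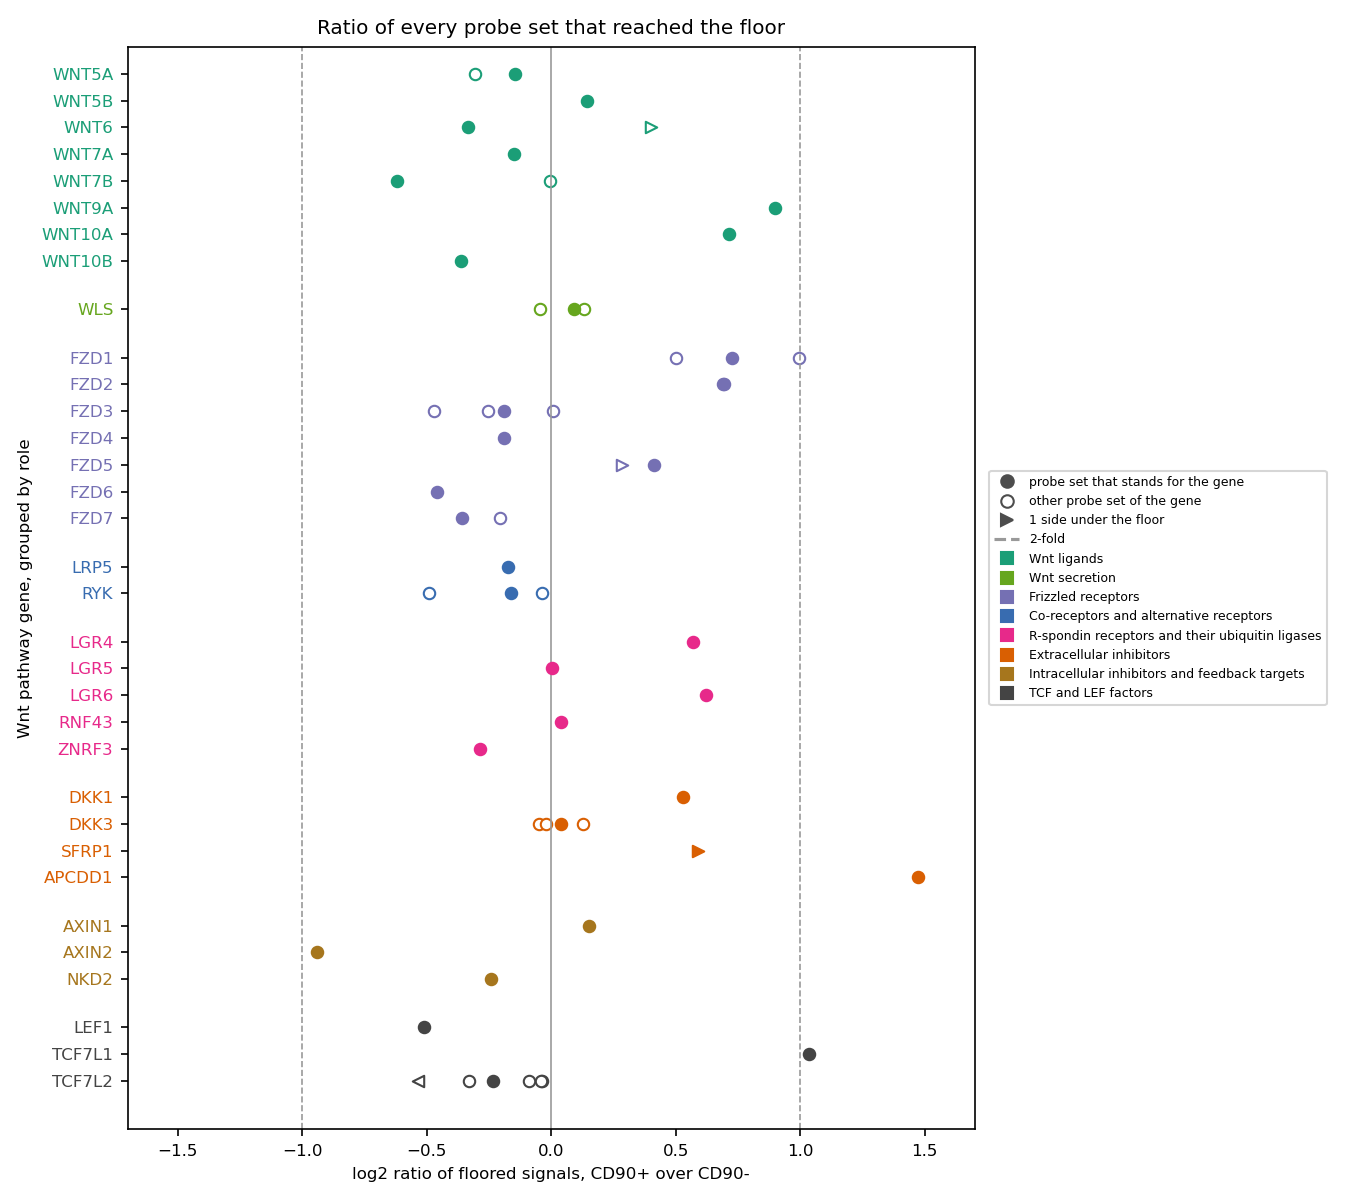
Log2 ratio of floored signals, CD90+ over CD90-, for each of the 56 probe sets of the Wnt genes that reached the floor; filled marks stand for the gene, open marks are its other probe sets, triangles have 1 side under the floor, and dashed lines mark 2-fold. The 3 marks of FZD1 and the 2 of FZD2 lie right of 0, while those of WNT6 lie on both sides of 0.

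FZD6, a receptor with a role in planar polarity of skin, read 1713 in CD90+ and 2356 in CD90- cells, 1.38-fold lower. FZD7 read 1126 and 1444 on 1 probe set and 579 and 668 on the other, folds of 1.28 and 1.15 in the same direction. FZD7 sits among genes with a median log2 ratio of -0.24, against its own -0.36, so after subtraction of the neighbours -0.12 was left. FZD5, whose neighbours had the same median of -0.24, went the other way, at 547 and 411, 1.33-fold higher.

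FZD3 had 4 probe sets with log2 ratios from -0.47 to 0.01, and FZD4 read 173 and 198. FZD10 was under the floor in both fractions. Of the other receptors, the co-receptor LRP5 read 120.0 and 135, and RYK, a kinase-related Wnt receptor, 4453 and 4984. Further RYK probe sets read 244 and 250, and 711 and 999, so that 3 of 3 were lower in CD90+ cells. ROR1 and ROR2, receptors of WNT5A, were under the floor in both fractions on every probe set.

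In the R-spondin branch the receptors LGR4 and LGR6 had higher signals in CD90+ cells and LGR5 did not. LGR4, which with its relatives binds R-spondins and so protects Frizzled receptors from removal, had a signal of 2269 in CD90+ cells against 1529, 1.48-fold higher. LGR6 read 210 and 136, a fold of 1.54, among neighbours whose median log2 ratio was 0.28. LGR5, a target gene and stem cell marker of intestine, read 354 and 354.

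The ubiquitin ligases that LGR proteins oppose remove Frizzled receptors from the surface and are feedback targets. RNF43 read 441 in CD90+ and 430 in CD90- cells, and ZNRF3 1415 and 1723, 1.22-fold lower. All 5 genes of this branch were measured, each on 1 probe set, and 0 of 5 were beyond 2-fold. Over all measured genes 2.47% were at least 2-fold higher and 1.75% lower.

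Of the 9 extracellular inhibitors 4 were measured and 5 were under the floor. All 4 ratios were above 0, although that of DKK3 turned below 0 under 3 of 11 alternatives. SFRP1 was measured only through its CD90+ reading, so its ratio could not have fallen below 0. For scale, 50.9% of all measured genes had a ratio above that of LGR5, which was 0.00. Besides APCDD1, DKK1, a secreted inhibitor that takes LRP5 and LRP6 out of action, read 6307 in CD90+ and 4371 in CD90- cells, 1.44-fold higher on its only probe set. SFRP1, a secreted Frizzled-like decoy, read 108 and 29.2, at least 1.51-fold higher, and its 3 other probe sets stayed under the floor. The CD90+ reading of SFRP1 was itself only just over the floor. Its CD90- reading was under the floor and was set to it, so without a floor the log2 ratio was 1.88 in place of 0.59. DKK3, a divergent member of the Dickkopf family, differed little, with 11773 and 11472 on its main probe set. Its others read 2164 and 2240, 714 and 652, and 414 and 419. DKK2, SFRP2, SFRP4, FRZB and WIF1 stayed under the floor in both fractions.

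AXIN2, a scaffold of the destruction complex and the most widely used readout of beta-catenin activity, was the member lowest in CD90+ cells. It read 179 in CD90+ and 344 in CD90- cells, 1.92-fold lower and just outside the 2-fold threshold, and 97.9% of all measured genes had a higher ratio. Its 3 other probe sets were under the floor in both fractions. AXIN1, the scaffold made regardless of the signal, read 191 and 172. Subtraction of the neighbours' median of 0.07 took the log2 ratio of AXIN2 from -0.94 to -1.01, past 2-fold.

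Target genes of the pathway that damp it, and NKD2, listed with them, did not share a direction. APCDD1 and DKK1 were higher in CD90+ cells, AXIN2, ZNRF3 and NKD2 lower, and RNF43 differed by 1.03-fold. The log2 ratios of ZNRF3 and NKD2, -0.28 and -0.24, were smaller in size than the pooled SD among probe sets of a gene, 0.31. NKD2, an inhibitor that binds Dishevelled, read 474 in CD90+ and 560 in CD90- cells, 1.18-fold lower, and NKD1 was under the floor in both.

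**Figure D3:**
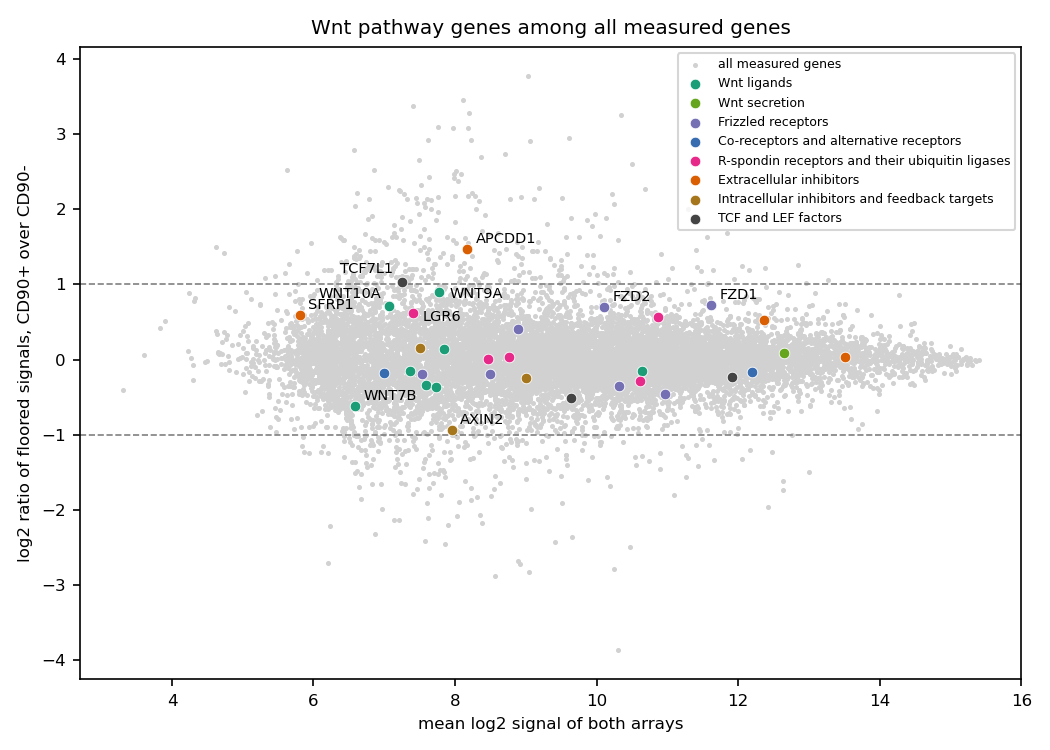
Log2 ratio of floored signals, CD90+ over CD90-, against the mean log2 signal of both arrays for the 12466 measured genes (grey) and the 33 measured Wnt genes (coloured by role); dashed lines mark 2-fold, and Wnt genes past 1.5-fold are named. FZD1 and FZD2 lie at brighter signals than the other 8 named genes, in a range where fewer genes pass 1.5-fold.

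LEF1 and TCF7L2 went opposite to TCF7L1. LEF1, a factor that is also a target of the pathway, read 670 in CD90+ and 955 in CD90- cells, 1.42-fold lower, with its other 2 probe sets under the floor. TCF7L2, the main such factor in gut epithelium, had 6 of 6 measured probe sets lower in CD90+ cells, with log2 ratios from -0.54 to -0.04. They read 3561, 762, 626, 321, 233 and 52.6 in CD90+ and 4191, 784, 666, 404, 239.7 and 104 in CD90- cells, and the main, first one gives a fold of 1.18. The last probe set reached the floor only in CD90- cells, so its -0.54 is a limit and its direction was fixed. The ratio of TCF7L1 thus stood apart from those of both relatives, and none was tested.

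The genes around the members on their chromosomes had ratios that varied from place to place, and this changed some of the members' ratios. Medians over the 50 nearest genes ran from -0.24, at FZD5 and FZD7, to 0.32, at WNT5B. Subtracting them left APCDD1 and TCF7L1 past 2-fold, at 1.42 and 1.22, added AXIN2 on the lower side, and moved the median of the members to -0.12. LGR6, at 0.62, became 0.34, and WNT5B, at 0.14, became -0.18. WNT5B was 1 of 8 members whose sign changed under at least 1 processing alternative, with WNT6, WLS, FZD3, LGR5, RNF43, DKK3 and AXIN1. The other 25 kept theirs.

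**Figure D4:**
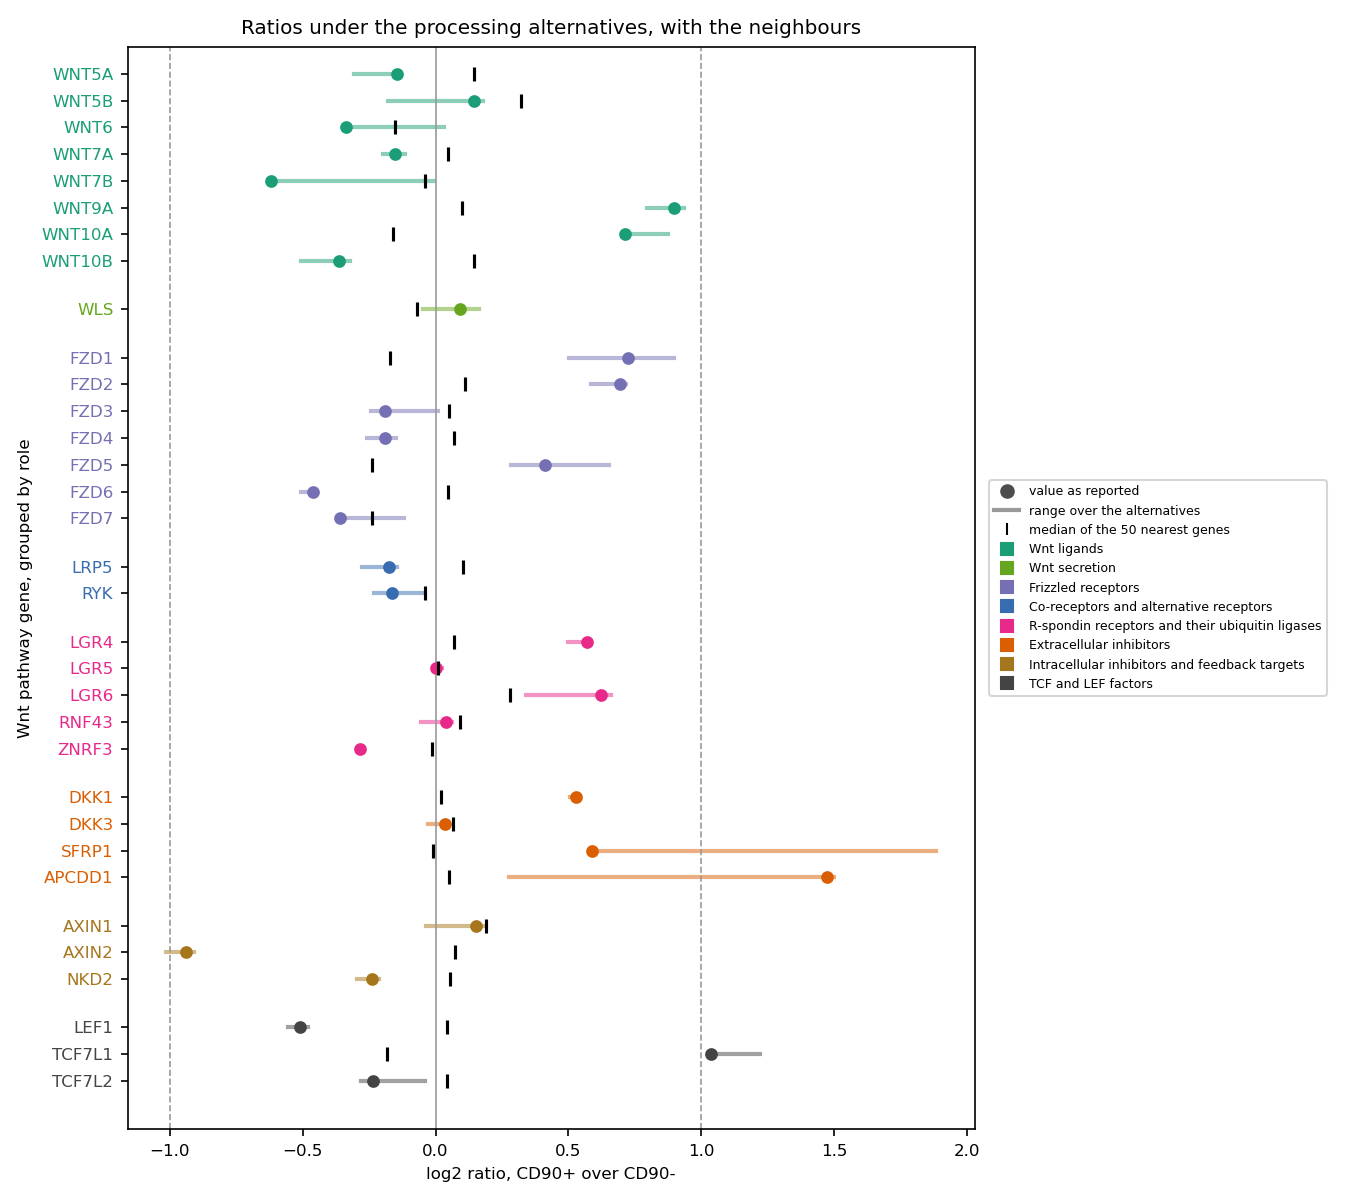
Log2 ratio, CD90+ over CD90-, of the 33 measured Wnt genes as reported (points) with the lowest and highest value over up to 11 processing alternatives (bars) and the median of the 50 nearest genes (black ticks); dashed lines mark 2-fold. The bars of FZD1, FZD2, LGR4 and DKK1 stay on the right of 0 and those of AXIN2, LEF1 and FZD6 on the left, while APCDD1 and SFRP1 have the longest bars.

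A further 79 genes of the pathway were listed by role, and 61 of them were measured. Of these 1 was at least 2-fold higher in CD90+ cells (1.64%, against 2.47% of all measured genes), 2 were at least 2-fold lower (3.28%, against 1.75%) and 58 lay between on floored signals, with a median log2 ratio of 0.00. The genes past 2-fold were the ligand WNT2B, the inhibitor SOST and the target TBX3.

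WNT2B, a ligand that signals through beta-catenin, had the widest difference of the listed Wnt genes with both readings over the floor and was lower in CD90+ cells on 4 of 4 probe sets. They read 271, 186, 133 and 87.6 in CD90+ and 1075, 1060.1, 334 and 136 in CD90- cells. The folds were 3.97, 5.70, 2.51 and 1.55, so the direction is shared while the size is not. The neighbours of WNT2B had a median log2 ratio of -0.11. Of the other ligands and agonists NDP read 103 and 120.5, and WNT16 was dim with opposite directions on its probe sets, 75.5 and 65.7 on the main one and 65.2 and 125 on an _x_at one, while WNT1, WNT8A, WNT8B, WNT9B and RSPO1 to RSPO4 stayed under the floor in both fractions.

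SOST, the secreted inhibitor sclerostin known from bone, read 216 in CD90+ and 33.6 in CD90- cells, at least 3.02-fold higher on its only probe set; at the floor of 397 it was not measured. TBX3, a T-box repressor, was lower in CD90+ cells on 3 of 3 measured probe sets, at 927, 795 and 193 against 2455, 1475 and 240.3, folds of 2.65, 1.85 and 1.24. Just under 2-fold, and singled out after its values were seen, was TNFRSF19, a receptor that Wnt induces, at 495 and 974, 1.97-fold lower. CCND1, the G1 cyclin, also singled out afterwards, went the other way, at 5561 and 3300, 1.69-fold higher. The listed targets thus held differences in both directions, 6 ratios above 0 and 4 below.

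No measured gene in the further lists of Dishevelled and the destruction complex, or of receptors and membrane modulators, was beyond 2-fold. Of all measured genes 2.47% were at least 2-fold higher and 1.75% lower. Beta-catenin itself, CTNNB1, read 10973 in CD90+ and 10230.2 in CD90- cells, and its 3 probe sets had log2 ratios from -0.12 to 0.10. The kinase CSNK1A1, which primes beta-catenin for degradation, read 8357 and 7719.9, and 5 of its 12 measured probe sets had ratios above 0, over a range from -0.47 to 0.21. Among 16 measured genes of Dishevelled and the destruction complex 0 were beyond 2-fold, and the lowest ratio was -0.81, of the tankyrase TNKS, whose neighbours had a median of -0.33. In the receptor list 0 of 7 were beyond 2-fold, 4 above 0 and 3 below. The glypican GPC4 read 3310 and 2406, and the syndecan SDC1 1779.7 and 2124 on its main probe set and 1392 and 1266 on the other. The co-receptor LRP6, singled out afterwards, read 1871 and 1630.

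Nuclear partners and planar polarity genes held 0 of 11 genes each beyond 2-fold, against 2.47% of all measured genes higher and 1.75% lower. Nuclear partners had 8 of 11 ratios below 0 and a median of -0.18. Over all measured genes 49.1% had a ratio below that of LGR5, which was 0.00. The corepressor TLE1 read 1448 and 1974 (1 of its 4 probe sets went the other way, at 0.22) and the acetyltransferase CREBBP 4190 and 3754. PYGO2, TLE3 and CREBBP also had probe sets on both sides of 0. The polarity list had 5 ratios above 0 and 6 below, the lowest that of PRICKLE2, singled out afterwards, at 239 and 413, 1.73-fold lower. The scaffold SCRIB read 2744 and 2621. DAAM1, a formin downstream of Dishevelled, read 2367 and 1647, with 5 of 5 probe sets higher in CD90+ cells and log2 ratios from 0.14 to 0.98.

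**Figure D5:**
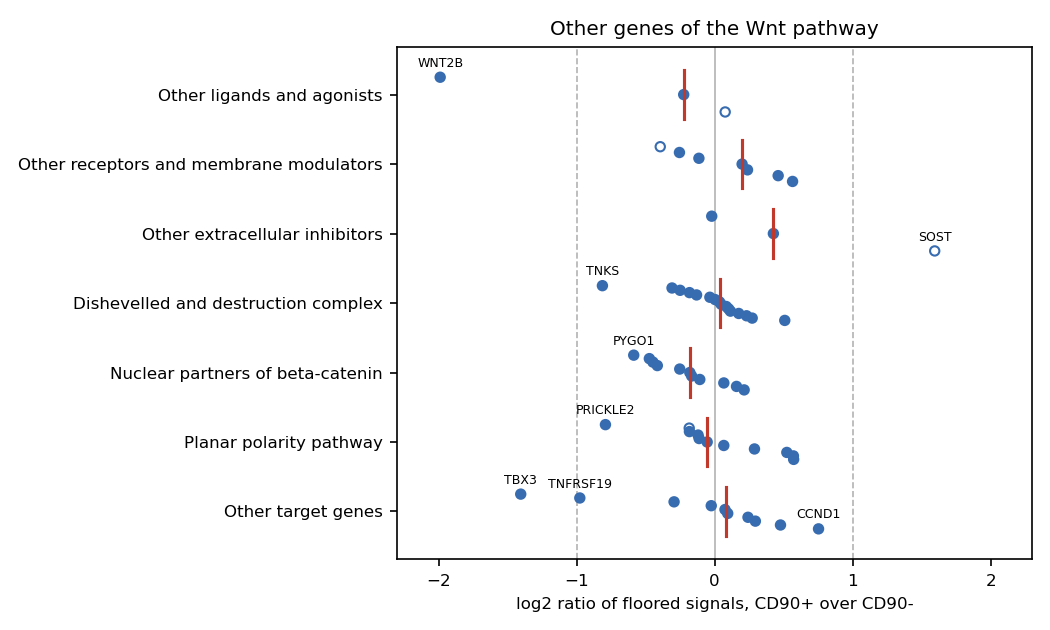
Log2 ratio of floored signals, CD90+ over CD90-, for the 61 measured genes of the other Wnt pathway lists, 1 row per list; open points have 1 side under the floor, red bars are list medians, dashed lines mark 2-fold and genes past 1.5-fold are named. WNT2B (-1.99) and TBX3 (-1.41) lie left of the dashed line and SOST (1.59) right of it.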

How the data were processed

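Expression was measured in 2 samples, CD90+ and CD90- cells of KYSE-140, 1 array each, grouped by the cell population label. The deposited intensity values are MAS5 signals, per the submitters' processing notes; neither version nor settings nor detection calls were given in the sources used here. The authors had scaled both arrays to a trimmed mean of about 500, as the values show (499.9 on each), and their 54675 probe sets include 62 controls, left out of counts. MAS5 subtracts a background that is estimated partly from mismatch probes.

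Gene names came from GEO's platform annotation, updated by gene identifier to the RefSeq table of GRCh38.p14; 41091 had a single symbol. Signals under 71.6, the geometric mean of the medians of both arrays, were set to it, and log2 ratios of CD90+ over CD90- were taken. The probe set with the highest mean log2 signal stood for a gene, with the _x_at class used only where there was no other. Members were counted at 2-fold and 1.5-fold. Every member is named: every probe set that reached the floor is given for members past 2-fold or nearest to it and for the 3 brightest of each role, and from each further list genes past 2-fold, or the 2 brightest where there were none. Neighbours are the 50 genes nearest by start position that reached the floor on both arrays. Members and lists were chosen with earlier results of these data known. The procedure was tested on simulated data. No rate of false calls at 2-fold or 1.5-fold is reported from that test, so it cannot show whether the differences above are real. Python 3.11.15, numpy 2.4.6, pandas 2.3.3, statsmodels 0.14.6 and matplotlib 3.10.9 were used. Precision is limited by the number of arrays.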

Additional observations from a re-analysis of the deposited data

How the results depend on the processing

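Counts at 2-fold, and at 1.5-fold as an addition made after seeing the data, were recomputed under the floor at the 25th or 75th percentile, no floor, loess (span 0.3), quantile normalization, a scaling that sets the median ratio to 0, the mean over probe sets, the least changed probe set, no _x_at, _s_at or _a_at classes, the neighbours' median subtracted and a filter on mean signal. The count of 2 Wnt members at least 2-fold higher was 0 with the floor at the 75th percentile (17 members measured), 1 without the shared classes, which drop TCF7L1, 3 with no floor or the lower floor, where SFRP1 passes, and 8 at 1.5-fold. Those 3 were 9.09% with no floor and 7.89% with the lower floor, against 4.34% and 6.51% of all measured genes. The count of 0 lower became 1, AXIN2, with the neighbours subtracted, 2 at 1.5-fold, and stayed 0 under the other alternatives. At 1.5-fold the 8 higher members became 2 with the floor at the 75th percentile (11.8%, against 4.21% of all measured genes), 5 of 25 without the shared classes (against 7.37%) and 9 with the lower floor (23.7% against 13.8%), and were 7 or 8 under the other alternatives. The 2 lower became 4 with the lower floor, 0 with the higher one, and 1 by the mean over probe sets, the least changed probe set or with the neighbours subtracted. The members' median log2 ratio was -0.12 with the neighbours subtracted and -0.15 without the shared classes, where 25 members were measured; elsewhere it ran from -0.07 to 0.04. Among the further genes the higher count of 1 was 0 with the floor at the 75th percentile, 3 at the 25th and 2 at 1.5-fold; the lower count of 2 was 1 by the mean over probe sets, 0 by the least changed probe set and 6 at 1.5-fold. The motif share was 0% with CTTTGAT and 6.67% with 4 forms. No scaling moved the median of all genes by over 0.1, and the cause of the other changes was not tested. With 1 array per fraction no difference of any size can be set against a spread between samples.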
